A study of Mus musculus with 15 samples.

Results

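The endothelin and angiotensin systems were examined in whole hearts of male mice, through 7 genes: the endothelin-1 precursor Edn1, the endothelin-converting enzyme Ece1, the endothelin receptors Ednra and Ednrb, the angiotensin precursor Agt, the angiotensin-converting enzyme Ace and the type 1a angiotensin receptor Agtr1a. A gene was followed through each probe set of the array annotated to that gene alone. This gave 11 of 45101 probe sets, for 6 of the 7 genes. No probe set used here named Ednra, so this receptor was not analysed here. The study hybridised total RNA of 15 hearts to 1-colour Affymetrix arrays, 8 of control mice and 7 of mice with 1 Lmna H222P allele (heterozygous), all male and 10 weeks of age. Lmna encodes lamins A and C of the nuclear lamina, and H222P is a substitution found in people with Emery-Dreifuss muscular dystrophy, a muscle disease that also affects the heart. The labels give no strain, litter or allele for the controls and do not say that mice of the same number belong together.

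Endothelin-1 is a vasoconstrictor peptide that endothelial cells cut from the precursor encoded by Edn1, with Ece1 making the last cut. It acts on Ednra of smooth muscle and heart muscle cells and on Ednrb, which in vessels lies mainly on endothelial cells and also clears the peptide. Angiotensin II is cut from angiotensinogen, the product of Agt, by renin and then by Ace on the endothelial surface, and in rodents it acts mainly through Agtr1a. Both peptides raise blood pressure and promote hypertrophy and fibrosis of the heart, and drugs that block Ace or the angiotensin receptor are standard treatment in heart failure.

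Array medians lay between 56.7 and 94.2 signal units, and every array had the same trimmed mean of 250.0, so signals are relative to a common target. All 12 tested markers of ventricular cardiomyocytes and all 12 of endothelial cells exceeded a log2 signal of 6, or 64 units, on each of the 15 arrays. The summed signal of 11 atrial markers ranged from 7505 to 12129 units in control and from 11693 to 42822 in heterozygous hearts. Nppa, the brightest of them, weighs most in this sum, with geometric means of 6947 and 12713 units. The mean log2 level of the 11, where each gene weighs the same, was 7.37 ± 0.43 (SD, n = 8) and 8.92 ± 0.49 (SD, n = 7). The log2 ratio of the 3' to the 5' probe set of Actb, a measure of RNA integrity, ranged from 0.29 to 1.23 in control and from 0.33 to 1.69 in heterozygous hearts. It was highest in heterozygous hearts 2, 5 and 3 and in control heart 6. In whole hearts, fewer cells of a type and less RNA per cell cannot be told apart.

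None of the 11 probe sets passed limma's moderated test, at adjusted p-values from 0.209 to 0.996. Over all 38870 probe sets tested, 0.252% passed at an adjusted p under 0.05. At an unadjusted p under 0.05 there were 3 of the 11, beside 14.6% of all tested probe sets. In heterozygous hearts Edn1 was on the higher side, beside 4.44% of all, and 1 probe set each of Ece1 and Ednrb was on the lower side, beside 10.1%. The groups overlapped in all 11, as in all but 0.468% of the probe sets tested. Log2 differences, heterozygous minus control, were above 0 in 5 probe sets and below 0 in 6. Their median was -0.15, beside -0.11 over all tested probe sets, and their median size without sign was 0.27, beside 0.30.

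**Figure D1:**
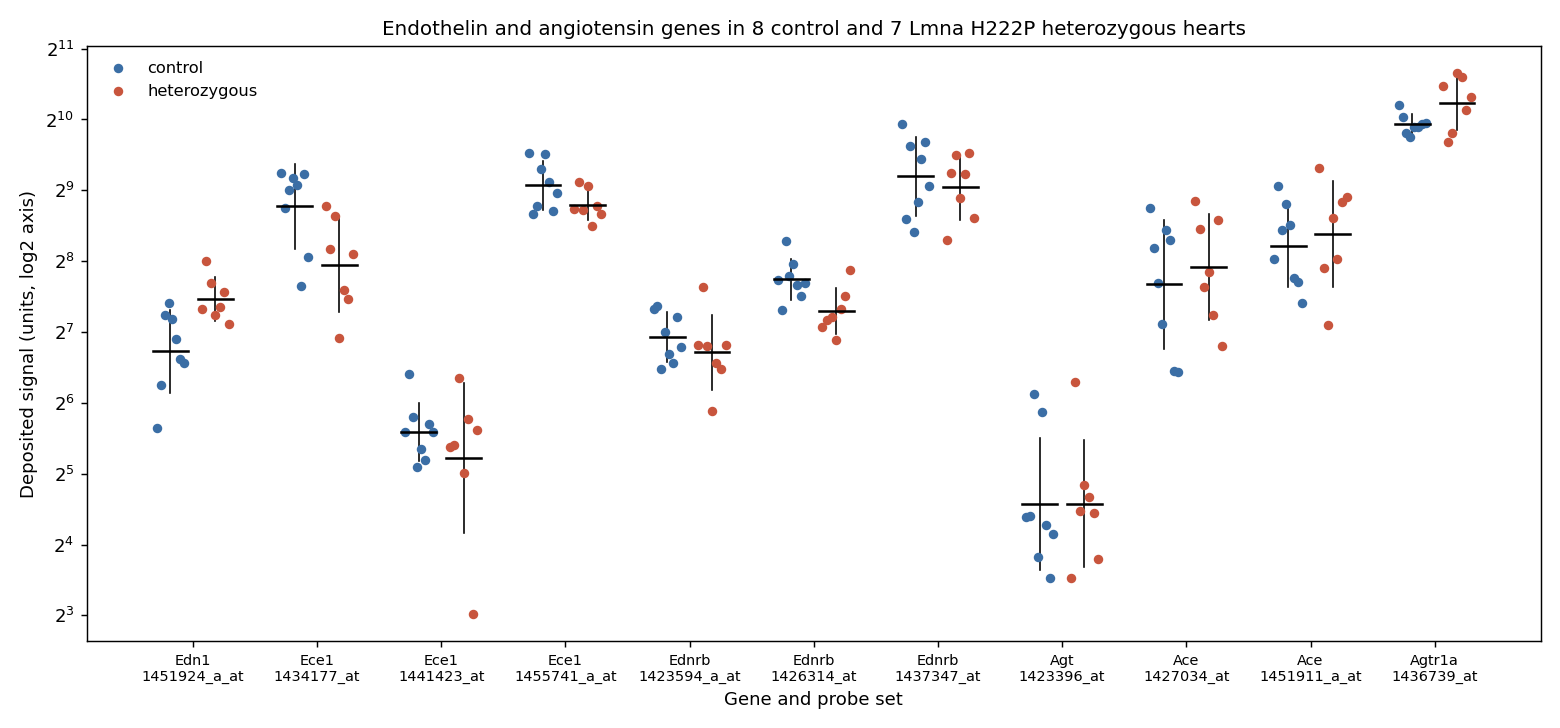
Deposited signal (log2 axis, signal units) of each probe set of Edn1, Ece1, Ednrb, Agt, Ace and Agtr1a, with 1 point per heart, a horizontal bar at the geometric mean and a vertical line of 1 SD of the log2 signals to each side. All 7 heterozygous hearts had Edn1 signals of at least 138.0 units while 5 of 8 controls lay below that, and the groups overlap in every probe set.

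Edn1 had the smallest p of the 11 probe sets. Its signal, in probe set 1451924_a_at, ranged from 50.0 to 170.8 units in control with a median of 109.0, and from 138.0 to 255.7 units in heterozygous hearts with a median of 163.1. All 7 heterozygous hearts were above the control median, and 5 of the 8 controls were below the lowest heterozygous heart. Mean log2 signals were 6.73 ± 0.59 (SD, n = 8) and 7.47 ± 0.31 (SD, n = 7). The ratio of geometric means was 1.67, with a 95% interval of 1.16 to 2.41, an unadjusted limma p of 0.0094 and an adjusted p of 0.209. Its rank by p was 1744 among the 38870 probe sets tested.

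The 3 probe sets of Ece1 all lay below 0. In 1434177_at the controls ranged from 200.0 to 607.8 units with a median of 526.6, and the heterozygous hearts from 120.2 to 439.3 with a median of 275.6. All 7 heterozygous hearts were under the control median, but controls 2, 6 and 8, at 430.3, 200.0 and 266.4 units, fell within their range. The heterozygous level was 0.566 of control (95% interval 0.354 to 0.906), with an unadjusted limma p of 0.0209 and an adjusted p of 0.267. The brightest probe set, 1455741_a_at, ranged from 405.3 to 737.6 units in control and from 360.8 to 556.4 in heterozygous hearts, a ratio of 0.827 (95% interval 0.642 to 1.07). The third, 1441423_at, was weak, with 2 of 15 arrays above 64 units, and its ratio of 0.774 had an interval of 0.438 to 1.37. The probe sets of Ece1 did not follow each other from heart to heart: with group means removed, Pearson's r between the pairs was 0.01, 0.37 and -0.31 over 15 arrays.

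Ednrb was likewise read by 3 probe sets, all with differences below 0. In 1426314_at the controls ranged from 159.1 to 312.7 units with a median of 209.1, and the heterozygous hearts from 117.8 to 235.4 with a median of 148.7. Of the 7 heterozygous hearts, 4 lay below every control, and heterozygous heart 7, at 235.4 units, lay above most controls. The heterozygous level was 0.732 of control (95% interval 0.564 to 0.949), with an unadjusted limma p of 0.0216 and an adjusted p of 0.269. The brightest probe set of the receptor, 1437347_at, gave 0.899 (0.609 to 1.33) and 1423594_a_at gave 0.862 (0.612 to 1.21). Centring the arrays on their medians raised the difference of each probe set tested by the same 0.21 (log2), which took that of 1437347_at from -0.15 to 0.052. Correlations between the 3 probe sets were again low, from -0.18 to 0.13.

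**Figure D2:**
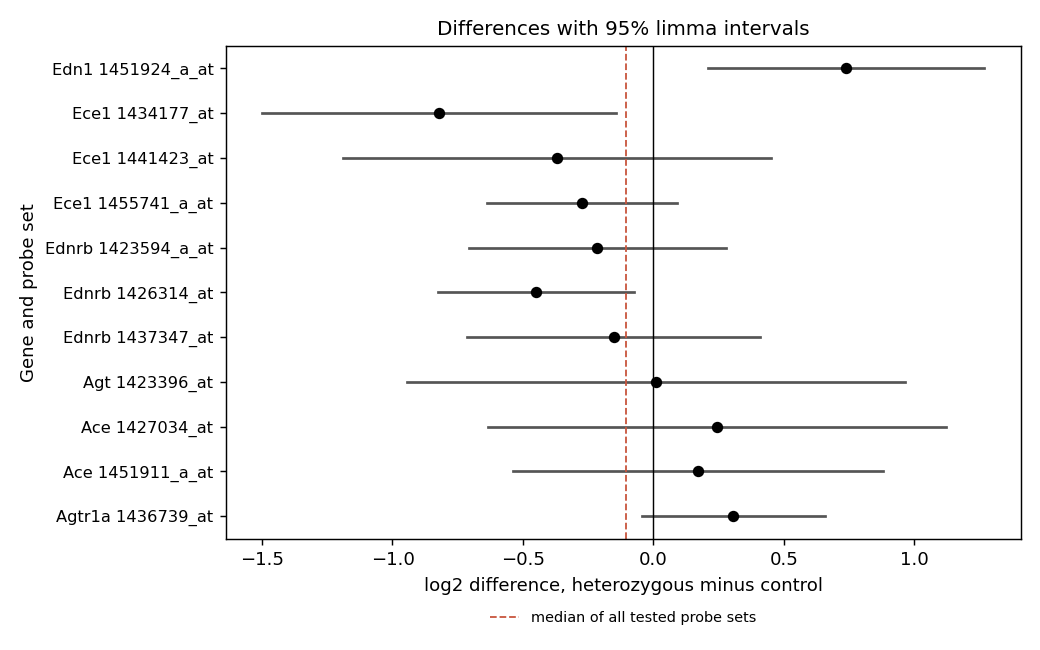
Log2 difference (heterozygous minus control) of each probe set, as points with 95% limma intervals; the dashed line is the median of all tested probe sets, at -0.11. The intervals of Edn1, of Ece1 1434177_at and of Ednrb 1426314_at lie to one side of 0 and the other 8 hold it.

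On the angiotensin side the precursor gene Agt, whose protein comes chiefly from the liver, was near the lower end of the arrays. Its signals ranged from 11.5 to 69.7 units in control and from 11.5 to 78.4 in heterozygous hearts, with medians of 20.2 and 22.3, and on no array did it reach the array's own median. Its ratio was 1.01, with a 95% interval of 0.519 to 1.95, so the ratio is known only to within those bounds. Its log2 difference of 0.0085 became -0.25 with the Actb ratio as a covariate, without passing.

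Ace varied widely within both groups. Probe set 1427034_at ranged from 86.5 to 431.0 units in control (median 248.5) and from 112.1 to 460.6 in heterozygous hearts (median 229.4). Probe set 1451911_a_at ranged from 169.9 to 536.1 units (median 305.0) and from 137.4 to 639.3 (median 388.8). Both ranges overlap almost completely. The ratios of geometric means were 1.18 (95% interval 0.645 to 2.18) and 1.12 (0.688 to 1.84), with adjusted p-values from limma of 0.821 and 0.848. The within-group SDs of 0.84 and 0.66 (log2) were larger than those of 96.6% and 95.2% of the tested probe sets within 0.5 (log2) of the same mean level, whose median SDs were 0.38 and 0.33. Ednrb 1437347_at and Ece1 1434177_at also scattered more than 91.6% and 94.7% of probe sets of like level, whereas Edn1 and Agtr1a were near the middle, at 48.7% and 50.8%.

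Agtr1a had high and even signals in control hearts, from 862.4 to 1178 units with a median of 969.5. In heterozygous hearts it ranged from 820.4 to 1614 units with a median of 1276. Hearts 1, 4, 5 and 7 of the heterozygous group, at 1425, 1614, 1557 and 1276 units, were above every control, heart 6 at 1127 lay within the control range, heart 3 at 892.7 lay near its lower end and heart 2 at 820.4 lay below every control. Mean log2 signals were 9.93 ± 0.14 (SD, n = 8) and 10.24 ± 0.38 (SD, n = 7). The ratio was 1.24 (95% interval 0.969 to 1.58) with an unadjusted limma p of 0.0834 and an adjusted p of 0.411. Whether the spread differs between the groups was not tested.

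The hearts with the most Edn1 signal had the least Agtr1a signal within both groups. In control hearts Edn1 ran in the order 1, 2, 8, 7, 6, 5, 3 and 4, from 50.0 to 170.8 units, and Agtr1a ran in exactly the reverse order. Control heart 1 had 50.0 units of Edn1 and 1178 of Agtr1a, and control heart 4 had 170.8 and 862.4. Among heterozygous hearts, numbers 2 and 3 had the highest Edn1, at 255.7 and 207.4 units, and the lowest Agtr1a, at 820.4 and 892.7. Of the 15 pairs among the 6 genes, each gene in its brightest tested probe set, this pair alone passed. With group means removed, Pearson's r was -0.67 over 15 arrays (permutation p = 4e-05 from 100000 permutations within groups, two-sided, adjusted p = 0.0006 over the 15 pairs) and Spearman's rho was -0.80 (permutation p = 0.00013, adjusted p = 0.00195). Without control hearts 1 and 2, the farthest from the median of Edn1, r was -0.71. Within control, r was -0.98 (exact permutation p = 4.96e-05, the smallest that 8 arrays allow), and without the 2 hearts farthest from the median it was -0.93. Within the heterozygous group r was -0.86 (exact permutation p = 0.0206) and rho was -0.75 (exact permutation p = 0.0663). Without heterozygous hearts 2 and 3, r there was -0.42, so in that group the relation rests on those hearts. Across all 15 hearts with group means kept, r was -0.12, with both genes higher on average in heterozygous hearts.

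Whether this pair passed depended on the scaling of the arrays. After quantile normalization r was -0.65 (permutation adjusted p = 0.00105 over the 15 pairs). With arrays centred on their medians r was -0.19 (permutation adjusted p = 0.686), with -0.38 in control and -0.31 in heterozygous hearts. Centring subtracts 1 value per array from both genes. Of 14103 single-gene probe sets above 64 units on every array, Agtr1a had the lowest correlation with Edn1 in control and 153 had a lower one in the heterozygous group. It was 1 of 3 with r under -0.8 in both, or 0.0213%. These shares describe these 15 arrays and were computed after the pair was seen. Edn1 was read by a single probe set and so was Agtr1a, so no other probe set of either gene bears on the relation.

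**Figure D3:**
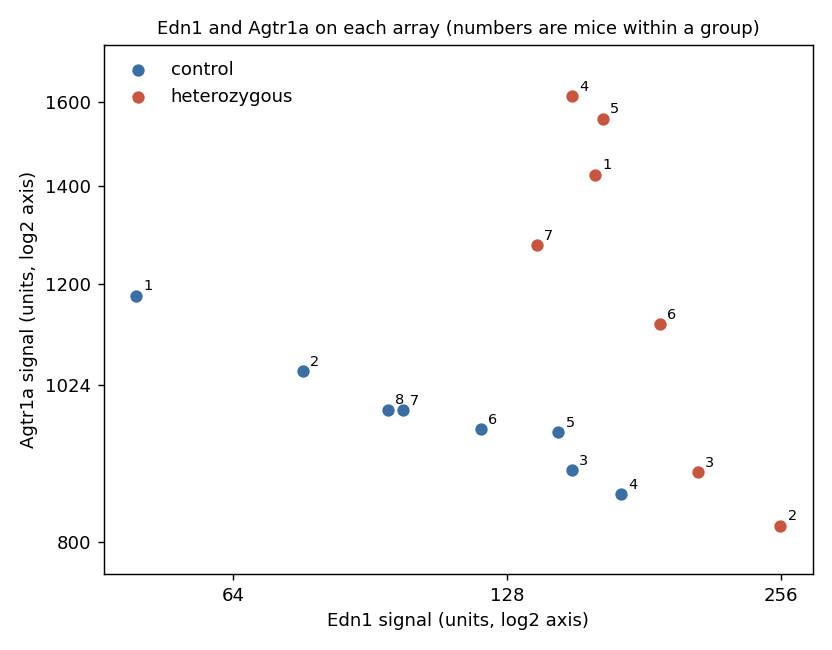
Edn1 signal (horizontal) against Agtr1a signal (vertical), both in signal units on log2 axes, with 1 point per heart numbered within its group. The 8 controls descend from heart 1 to heart 4, and the 7 heterozygous hearts lie to the right of or above them with hearts 2 and 3 lowest.

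Edn1 and Agtr1a were set beside 3 array properties and the mean log2 level of 11 lists of cell type markers, as were the other 4 genes, for 84 relations in all with group means removed. None passed, with a smallest adjusted permutation p of 0.398 for Pearson's r and 0.339 for Spearman's rho. Edn1 had r of -0.03 with the array median, 0.07 with the Actb ratio, 0.10 with endothelial markers and 0.23 with smooth muscle and pericyte markers. Agtr1a had r of -0.43, -0.31, 0.31 and 0.05 with the same 4 measures. With fibroblast markers r was -0.03 for Edn1 and 0.39 for Agtr1a. With the 3' to 5' ratio of Gapdh, a second measure of RNA integrity, r was 0.08 for Edn1 and -0.46 for Agtr1a. Within the heterozygous group Edn1 had r of 0.65 with the Actb ratio and 0.81 with the Gapdh ratio, and Agtr1a had -0.48 and -0.70. Within control the values were -0.37 and -0.48 for Edn1 and 0.44 and 0.54 for Agtr1a. With the array median r was -0.45 for Edn1 and 0.48 for Agtr1a in control, and 0.59 and -0.70 in heterozygous hearts. With endothelial markers it was 0.66 and -0.71 in control, and -0.46 and 0.53 in heterozygous hearts. With fibroblast markers it was 0.64 and -0.58, and -0.61 and 0.55. With smooth muscle and pericyte markers it was 0.25 and -0.26, and 0.18 and 0.27. Hearts 2 and 3, on which the relation in the heterozygous group rests, had the highest Gapdh ratios of that group, at 0.37 and 0.28 (log2). The part of RNA integrity in the relation was not tested. By Pearson's r the lowest p of the 84 was that of Ace with the Gapdh ratio, at r = -0.70 (permutation p = 0.00735, adjusted p = 0.398). By Spearman's rho it was that of Ece1 with red cell and platelet markers, at rho = -0.71 (permutation p = 0.00635, adjusted p = 0.339), where r was -0.65. Among the other pairs of the 6 genes the lowest p was that of Ednrb and Ace, at r = -0.64 (permutation p = 0.0123, adjusted p = 0.0921) and rho = -0.62 (permutation p = 0.0162, adjusted p = 0.122).

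Genes that followed a member most closely from heart to heart were sought among the 14103 probe sets above 64 units on every array, by Pearson's r over 15 arrays with group means removed. They are descriptions, since the highest of so many correlations is high by selection. For Agtr1a these were the zinc finger gene Zfp383 (r = 0.86, rho = 0.89), the nucleotide hydrolase gene Nudt6 (r = 0.85, rho = 0.71) and the fibronectin gene Fn1 (r = 0.82, rho = 0.71). Fn1 followed Agtr1a in heterozygous hearts at r = 0.93 but not in control, at r = -0.05. For Ace they were the mitochondrial carrier gene Slc25a23 (r = 0.89), the DNA repair gene Rad23b (r = 0.88) and Reep5 (r = 0.87), which shapes endoplasmic reticulum. For Ece1 they were the histone demethylase gene Kdm1a (r = 0.87), Tmem127 (r = 0.84) and the peroxisome gene Pex6 (r = 0.84). For Ednrb they were the phospholipase gene Pla2g6 (r = 0.85), the mitochondrial gene Miga2 (r = 0.84) and the guanine nucleotide exchange factor gene Arhgef6 (r = 0.84). Edn1 and Agt were not examined in this way because control heart 1 had Edn1 under 64 units and 13 of 15 hearts had Agt there.

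Of 71 other genes of these systems and their downstream signalling, 60 were tested, each in its brightest probe set, and 0 passed limma's test, at a smallest adjusted p of 0.126. Over all 16627 genes tested in this way 0.289% passed. At an unadjusted p under 0.05 there were 7 of the 60, 5 on the higher and 2 on the lower side, where the share over all genes was 15.2%. Their median log2 difference was 0.03, beside -0.08 over all genes. Of the 60, 32 lay above 0, where the share over all genes was 41.5%. None of the 127 probe sets tested for these genes passed, and 19 were at an unadjusted limma p under 0.05.

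Among the 6 other endothelin peptide and protease genes, 5 lay below 0, with a median of -0.52 (log2), where 41.5% of all genes lay above 0. Only 2 of the 6 exceeded a log2 signal of 6 on every array. The other probe set of Ece2 lay at 0.45 and those of Edn3 between -0.27 and 0.29, both genes named after their values were seen. Ecel1, a protease related to Ece1, stood at 0.477 of control, with signals from 38.3 to 140.9 units in control and from 12.2 to 82.7 in heterozygous hearts (limma adjusted p = 0.254). The Kell blood group protease gene Kel, whose product can also cut endothelin precursors and which is expressed in red cells, stood at 0.395 with signals down to 1.7 units (limma adjusted p = 0.366). Over the alternative fits other than leaving out single arrays, Ecel1 lay between -1.35 and -0.29 (log2) and Kel between -1.34 and -0.0086. Red cell and platelet markers were lower in heterozygous hearts as well: all 7 tested lay below 0, and their summed signal ranged from 3597 to 4418 units in control and from 1790 to 3417 in heterozygous hearts. Of these, Alas2 and Ppbp passed, at 0.387 and 0.256 of control (limma adjusted p = 0.0255 and 0.00117), and Alas2 no longer did with arrays centred on their medians (limma adjusted p = 0.0837). Neither passed in every alternative fit, where the highest limma adjusted p was 0.173 for Alas2 and 0.117 for Ppbp. Slc4a1 passed in 1 of its 2 probe sets. The part of blood in the value of Kel was not tested. Among 11 other angiotensin enzymes the median was -0.13. The mast cell chymase gene Cma1, whose product can form angiotensin II without Ace, stood at 0.637 of control (limma adjusted p = 0.365). Cma1 is itself among the 8 tested mast cell markers, of which 1 lay above 0. Only 1 of the 8 exceeded a log2 signal of 6 on every array. The prolyl peptidase gene Prep stood at 0.912.

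Of the other angiotensin receptors and receptor partners 3 of 6 were tested. The second type 1 receptor gene Agtr1b was weak, with geometric means of 35.1 and 19.7 units, and stood at 0.562 of control with an interval of -2.47 to 0.80 on the log2 scale. Agtrap, which encodes a protein that binds the type 1 receptor and promotes its uptake into the cell, stood at 1.16. Of the 5 kinin genes Klkb1 stood at 0.605 and Klk1 at 0.881, and of the 5 mineralocorticoid genes Hsd11b1, which regenerates active glucocorticoid, stood at 1.27 and the kinase gene Sgk1 at 0.801. Their adjusted p-values from limma lay between 0.490 and 0.766.

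**Figure D4:**
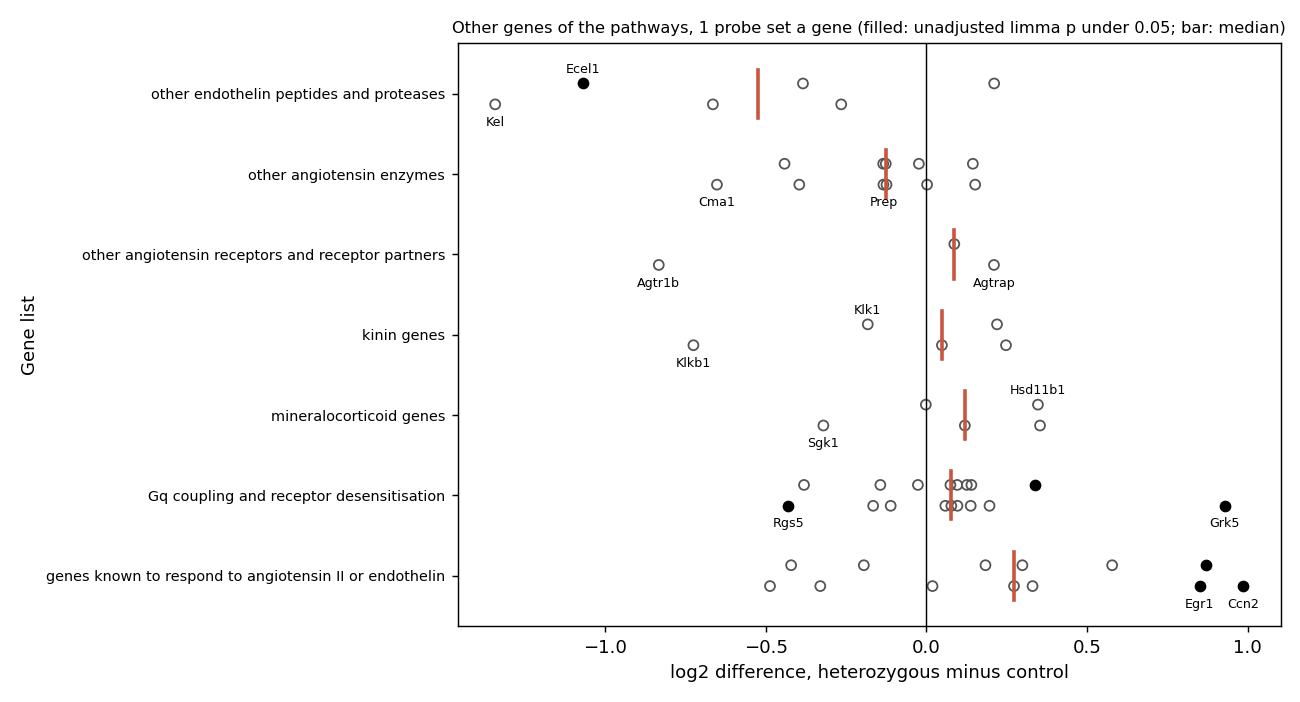
Log2 difference (heterozygous minus control, horizontal) of 60 other genes in 7 lists, 1 point per gene, filled where the unadjusted limma p was under 0.05, with a bar at each list's median. The filled points are 5 on the right and 2 on the left, and no gene passed after adjustment.

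Further down the receptors' signalling, 17 genes of Gq coupling and receptor desensitisation had a median of 0.08. Grk5, a kinase that desensitises receptors of this class, measured 341.4 to 539.2 units in control and 385.0 to 1522 in heterozygous hearts, 1.90-fold (limma adjusted p = 0.166), and its other probe set lay at 1.06 (log2). Rgs5, a brake on Gq and Gi signalling abundant in pericytes, measured 9298 to 11007 and 6182 to 10159 units, 0.743 of control (limma adjusted p = 0.169), with its other probe sets between -1.16 and 0.17. The phospholipase gene Plcb4 stood at 1.26-fold (limma adjusted p = 0.314). Among 13 tested genes known to respond to angiotensin II or endothelin the median was 0.27, with 9 above 0. Egr1, an immediate early transcription factor, stood at 1.80-fold (limma adjusted p = 0.126), the matrix growth factor gene Ccn2 at 1.98-fold (limma adjusted p = 0.218) and the natriuretic peptide gene Nppa at 1.83-fold (limma adjusted p = 0.251). Nppb, Tgfb1, Hbegf and Rcan1 of that list lay below 0, at 0.714, 0.747, 0.796 and 0.874 of control (limma adjusted p between 0.413 and 0.627). Plcb4, Nppa, Nppb, Tgfb1, Hbegf and Rcan1 were named after their values were seen. Nppa is also an atrial marker, and 3 of the 11 atrial markers passed: Sln, Myl7 and Myl4, with signals of 241.0 to 5110 units for Sln in heterozygous hearts, 451.9 to 5878 for Myl7 and 706.0 to 5034 for Myl4. The highest control level of each was that of control heart 6, at 406.7, 1213 and 1400 units. None of the 3 passed in every alternative fit: the highest limma adjusted p was 0.134 for Sln, 0.134 for Myl7 and 0.150 for Myl4. Myl7 stood at 25.8-fold and Myl4 at 7.10-fold, with the other probe set of Myl4 at -0.072 (log2). The control signals of Sln were weak, with a median of 6.0 units. Its log2 difference of 6.37 was 3.40 with signals under 64 units set to 64, and its other probe set lay at -0.94. Of the 11 atrial markers 9 lay above 0, beside 41.5% of all genes. Kcna5 and Bmp10 lay below, at 0.651 and 0.569 of control (limma adjusted p = 0.188 and 0.548), and were also named after their values were seen. The part of atrial tissue in the value of Nppa was not tested. Without control heart 6 the log2 differences of Edn1, Ece1 1434177_at and Ednrb 1426314_at were 0.76, -0.98 and -0.46, beside 0.74, -0.82 and -0.45 with it.

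No marker of endothelial cells, smooth muscle, pericytes or fibroblasts, which make these peptides or carry their receptors, passed in its brightest probe set. Endothelial markers, the cells of Edn1, Ece1 and Ace, had a summed signal of 7793 to 9024 units in control and 7803 to 11839 in heterozygous hearts, with 8 of 12 genes above 0 and 0 of 12 passing. Over all genes 41.5% lay above 0. At an unadjusted limma p under 0.05, 3 endothelial markers were higher and 0 lower, beside 15.2% of all genes. Their mean log2 level was 9.34 ± 0.10 (SD) in control and 9.47 ± 0.20 (SD) in heterozygous hearts. Smooth muscle and pericyte markers ranged from 21595 to 26095 and from 21314 to 26807 units, with 7 of 12 above 0 and 0 passing. Rgs5, lower in heterozygous hearts, was the brightest of them, at geometric means of 10103 and 7505 units. Their mean log2 level was 9.17 ± 0.17 (SD) in control and 9.47 ± 0.11 (SD) in heterozygous hearts. At an unadjusted limma p under 0.05, 4 were higher (Acta2, Tagln, Myh11 and Cnn1, named after their values were seen) and 1 lower, beside 15.2% of all genes. Other probe sets of Acta2 lay between -1.55 and 0.95 (log2). Fibroblast markers, of cells that carry Agtr1a, ranged from 25536 to 34512 and from 34451 to 44469 units, with 11 of 12 above 0 and 0 passing after adjustment. At an unadjusted limma p under 0.05, 5 were higher and 0 lower, beside 15.2% of all genes. Their mean log2 level was 10.41 ± 0.10 (SD) in control and 10.73 ± 0.28 (SD) in heterozygous hearts. Gsn and Dcn, named after their values were seen, weigh most in the summed signal. Their geometric means were 8122 and 6487 units in control and 10483 and 11941 in heterozygous hearts. Other probe sets lay between -0.72 and 0.74 (log2) for Gsn and at -0.47 for Dcn. The part of these shifts in the values of Edn1 and Agtr1a was not tested beyond the correlations given above.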

How the data were processed

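Total RNA of whole hearts was labelled with biotin and hybridised to Affymetrix arrays, 1 per mouse, as the labels' protocols give it. What the authors deposited are intensities, 1 linear signal for every probe set on an array. GCRMA is named, with no version, per the submitters' processing notes, but the values have 1 decimal and the same trimmed mean (2% at each end) on every array, so how probes were summarised and scaled is open. No genome build is given in the sources used here.

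Probe sets took their gene from the platform annotation: 34958 of 45101 had 1 symbol, 932 several and 9211 none. By gene identifier 34754 were found in the RefSeq table of GRCm38.p6, which changed 0 symbols. Signals were all above 0, so log2 was taken without a pseudocount. Without the 64 control probe sets of the manufacturer, those with a log2 signal above 4 on 7 or more of the 15 arrays were tested. The test was that of limma 3.58.1 under R 4.3.3 (two-sided, genotype as the only term, Benjamini-Hochberg over all tested probe sets, threshold 0.05). Correlations were permuted in scipy 1.17.1 under Python 3.11.15, 100000 times for pairs of genes and 20000 for other measures. Figures used matplotlib 3.10.9. On simulated arrays of 38870 probe sets with the real means and SDs, the test found 36% of log2 changes of 1, found 58% where the change was 2, and made 2 false calls. The difference of every member probe set was smaller in size than these, the largest being that of Ece1 1434177_at at -0.82 (log2). Precision is limited by the number of arrays, since array signals are not counts. The labels do not say how mice were related, so the p-values cover the spread of these samples.

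The members, lists, tests and alternatives were chosen with earlier results of these data known. The genes named are every probe set of the 7 genes, the 2 genes of smallest p of each list, every list gene that passed and the 3 genes most like each bright member. Alternatives were testing every probe set, a stricter filter (log2 of 6), centring on array medians, quantile normalization, a floor at a log2 of 6, a robust prior with a trend, array weights, a block for the replicate number and leaving out each array. Fits with the Actb ratio as a covariate or without the 4 arrays where it was highest, the correlations with array properties and marker lists, and the exact tests of Edn1 and Agtr1a within groups were added after seeing the data.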

Additional observations from a re-analysis of the deposited data

Results flagged for a closer look

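Each group of each of the 11 probe sets was searched for an array far from the others, 22 groups in all, where chance marks about 1 in 20. In Ece1 1441423_at heterozygous heart 6 stood apart at 8.1 units, with the other 6 heterozygous hearts between 32.2 and 81.6 units. This is the weak probe set of Ece1.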

How the results depend on the processing

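None of the 11 member probe sets passed in any of the 25 other fits that tested it, with adjusted p of at least 0.138. Edn1 kept a positive difference in all of them, from 0.58 to 0.94 (log2), and Ece1 1434177_at a negative one, from -1.12 to -0.62. Ednrb 1426314_at stayed below 0, from -0.55 to -0.25, and Agtr1a above 0, from 0.24 to 0.51. The unadjusted limma p of Agtr1a was 0.0834 in the main fit. It ranged from 0.0149 without the 4 arrays of highest Actb ratio to 0.176 without heterozygous heart 4. The filter at a log2 of 6 left out Agt and Ece1 1441423_at. Agt turned to -0.052 with the replicate block, -0.25 with the Actb ratio as covariate and -0.46 without the 4 arrays of highest Actb ratio, and ranged from -0.28 to 0.23 when arrays were left out in turn. After centring on array medians the differences of Ednrb 1437347_at, Klk1 and Prep became 0.052, 0.023 and 0.072. That centring raised every difference by 0.21, the median of all tested probe sets from -0.11 to 0.10, and left 0 of 15 member pairs (1 at an unadjusted permutation p under 0.05); leaving out each array left 1 to 2 pairs, the second being Ednrb with Ace, at r = -0.72 without control heart 8 and -0.74 without heterozygous heart 6. Of the other pathway genes 1 passed with the floor (Rgs5) and 1 with the trended prior (Egr1). Over all probe sets 98 passed. The count was 192 with the filter at 6, 65 both after centring (51 higher) and after quantile normalization (37 higher, against 35 of 98), 287 with the floor, 312 with the trended prior and 17 to 150 without single arrays. Same-numbered arrays of the groups had correlations from -0.06 to 0.06 with group means removed, none of 7 over 0.1. Whether mice of the same number share a source was not tested. The replicate block left 1 probe set. The cause of these changes was not tested.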
